A study of Cricetulus griseus with 24 samples.

Results

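The transcripts of 10 subunits of the Sin3, NuRD and CoREST complexes were measured by RNA-seq in Chinese hamster ovary (CHO) cells, the hamster ovary lines in which most recombinant antibodies are made. The subunits were Sin3a, Sin3b, Suds3 and Sap30 of the Sin3 complex, the histone-binding proteins Rbbp4 and Rbbp7, the NuRD subunits Mta1, Mta2 and Chd4, and Rcor1 of the CoREST complex. They were taken from the deposited count table by gene symbol, without regard to case. Each symbol had 1 row, so all 10 were found among the 28037 genes of the table. All 10 passed the filter on low counts in every comparison. A0 is a clone derived from CHO DG44 that makes a humanized antibody from a pair of co-transfected plasmids, 1 with the heavy chain and dihydrofolate reductase and 1 with the light chain and neomycin resistance. A1 is the high-producing progeny of A0 after stepwise amplification with methotrexate. CHO-S is another CHO line, whose library names carry NDST, and the sources used here do not give an antibody for it. Each line was grown as batch suspension cultures without serum and was sampled at exponential and at stationary phase. There were 4 A0, 3 A1 and 3 CHO-S cultures at each phase. The 8 exponential libraries of A0 carried 4 culture numbers and were summed to 4 cultures, which gave 20 cultures from 24 libraries. A0 and A1 are 1 clone each, so a difference between them cannot be told apart from a difference between clones. The methods describe parallel flasks of each line. The p-values rest on the spread between these cultures, which may be partly technical, and on a spread borrowed from all genes.

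As background, Sin3, NuRD and CoREST are multiprotein corepressors that bring the class I histone deacetylases Hdac1 and Hdac2 to chromatin. DNA-binding factors recruit them, the scaffold holds the deacetylase, and removal of acetyl groups from histone tails generally lowers transcription. Rbbp4 and Rbbp7 serve in Sin3 and NuRD alike and also in Polycomb, chromatin assembly and acetyltransferase complexes. In producer CHO lines, loss of histone acetylation at the integrated plasmid is known to accompany transgene silencing. Sin3a, Suds3, Rbbp4, Rbbp7, Mta1, Mta2 and Chd4 belong to a group of deacetylase-related genes that the study listed from these libraries, so their changes are not independent of that list.

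The 24 libraries held 1038026 to 14652646 reads on genes. The smallest was CHO-S stationary culture 1, with 32.8% of its reads outside genes against 18.1% and 18.2% in the other CHO-S stationary cultures. Its counts also stood apart from theirs, with a chi-square per degree of freedom of 30.5 and 33.7, against 2.28 between those cultures. The tests and counts that rest on CHO-S at stationary phase are therefore given with and without it. In A0 culture 1 at exponential phase, the second library, whose name carries RLT, a mark that the labels do not explain and that is also the name of the lysis buffer of all samples, lay far from the first (chi-square per degree of freedom 29.0). A0 cultures 1 and 2 differed from cultures 3 and 4 at stationary phase, at 17 to 20.7 between these pairs against 2.9 and 3.96 within them. The general CHO transcripts Vim, Lgals1 and Actb summed to 3025 CPM or more in every culture, while 3 blood cell markers together had at most 2 reads in any culture. The endothelial markers Pecam1 and Cdh5 summed to at most 7.32 CPM. Levels are CPM, the count of a gene scaled to a fixed library total, after 1 TMM scaling over all 20 cultures. Since transcript lengths were not used, levels were not compared between genes. In a bulk culture, a change in the share of cells that transcribe a gene and a change in transcript per cell cannot be told apart.

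Sin3a and Sin3b are the alternative scaffolds of the Sin3 complex on which its other subunits assemble. Sin3a was read at 271, 292, 344 and 288 CPM in A0 cultures 1 to 4 at exponential phase and at 192, 187, 224 and 228 CPM at stationary phase. In A1 it was read at 242, 256 and 255 CPM and then at 210.2, 193 and 202 CPM in cultures 1 to 3. In CHO-S the values were 191, 194 and 188 CPM and then 179.6, 149 and 147 CPM. Exponential A0 lay highest, then exponential A1, and neither overlapped the group below it. Stationary A0, stationary A1 and exponential CHO-S followed and overlapped their neighbours, and stationary CHO-S lay lowest. Sin3b ran between 60.4 and 78.9 CPM in every group but stationary CHO-S, and every pair of neighbours in its order overlapped. Stationary CHO-S had 38.2, 88.7 and 83.9 CPM, where the low value belongs to the shallow culture 1 with 37 reads.

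Suds3, a subunit of the Sin3 core needed for its deacetylase activity, had 155, 158, 162 and 141 CPM in exponential A0 and 120.2, 105, 101 and 98.8 CPM in stationary A0. A1 had 122, 124 and 118 CPM and then 90.6, 96.6 and 93.6 CPM. CHO-S had 132, 131 and 128 CPM and then 136, 112 and 98.8 CPM. All 4 exponential A0 cultures lay above every culture of the other groups, and stationary A1 lay below every other culture. Sap30, a small Sin3 subunit that bridges the scaffold and the deacetylase, was read at 15.97, 14.3, 18.9 and 16.8 CPM in exponential A0. Its 4 stationary A0 cultures had 8.84, 7.90, 12.1 and 11.5 CPM and lay below all 16 other cultures. A1 had 16.1, 18.4 and 18.1 CPM at exponential and 15.5, 14.4 and 18.1 CPM at stationary phase. Exponential CHO-S had 17, 17.6 and 20.2 CPM. Stationary CHO-S had 35.1, 14.2 and 15.04 CPM, the first of these from 34 reads in culture 1. Apart from stationary A0, all neighbours in the order of Sap30 overlapped.

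Rbbp4 and Rbbp7 are close paralogs, WD40 proteins that dock the complexes on histones H3 and H4. Rbbp4 had 102, 100.2, 90.9 and 103 CPM in exponential A0 and 70.4, 58.5, 71.01 and 75.1 CPM in stationary A0. In A1 it had 111, 118 and 109.6 CPM and then 88.2, 90.97 and 86.6 CPM, and in CHO-S 95.3, 96.7 and 93.03 CPM and then 51.6, 57.7 and 58.9 CPM. Exponential A1 lay above all other cultures. Exponential A0 and CHO-S overlapped. Stationary A1 lay below exponential CHO-S and just reached the lowest exponential A0 culture. Stationary A0 and CHO-S lay below stationary A1 and overlapped each other. Rbbp7 had 270.2, 263, 262 and 207 CPM in exponential A0 and 128, 132, 157 and 165 CPM in stationary A0. In A1 it had 197, 198 and 184 CPM and then 136, 152 and 149.6 CPM. CHO-S had 186, 183 and 185 CPM and then 116, 115 and 115 CPM, and here culture 1 did not stand apart. A0 lay highest at exponential phase, where A1 and CHO-S overlapped. At stationary phase A0 and A1 overlapped and CHO-S lay below both.

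Mta1 and Mta2 are alternative subunits that hold the deacetylase in NuRD, and Chd4 is its ATP-driven chromatin remodeler. Mta1 had 197, 192 and 191 CPM in exponential CHO-S and 72.2, 157 and 149 CPM in stationary CHO-S. In A0 it had 79.8, 85.1, 77.4 and 63.4 CPM and then 51.4, 47.6, 62.4 and 72.6 CPM. In A1 it had 61.9, 61.3 and 62.9 CPM and then 56.03, 61.3 and 66.6 CPM. Apart from the shallow culture 1, which was read at 72.2 CPM from 70 reads, the CHO-S cultures lay above all A0 and A1 cultures, and stationary A0 overlapped both A1 groups. Exponential A0 lay just above exponential A1. Mta2 ran from 112 to 149.8 CPM over 19 cultures, with 62.96 CPM in CHO-S stationary culture 1, and all neighbours in its order overlapped.

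Chd4 had 1021, 998 and 1014 CPM in exponential CHO-S and 1514, 948 and 895 CPM in stationary CHO-S. In A1 it had 787, 877 and 803 CPM and then 702, 675 and 664 CPM. In A0 it had 556, 606, 744 and 660.1 CPM and then 462, 491, 502 and 535 CPM. All CHO-S cultures lay above exponential A1, which lay above stationary A1. Exponential A0 overlapped stationary A1, and stationary A0 lay lowest. Rcor1, the scaffold that joins the demethylase Kdm1a to the deacetylases in CoREST, had 163, 154 and 147 CPM in exponential CHO-S and 157, 157 and 159 CPM in stationary CHO-S. The A0 cultures had 71.2, 73.1, 86.4 and 90.7 CPM and then 81.5, 86.4, 85.6 and 94.2 CPM, and the A1 cultures 75.4, 88.4 and 76.2 CPM and then 75.4, 72.3 and 75.1 CPM. CHO-S stood above A0 and A1 at both phases without overlap. The 4 groups of A0 and A1 overlapped their neighbours.

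**Figure D1:**
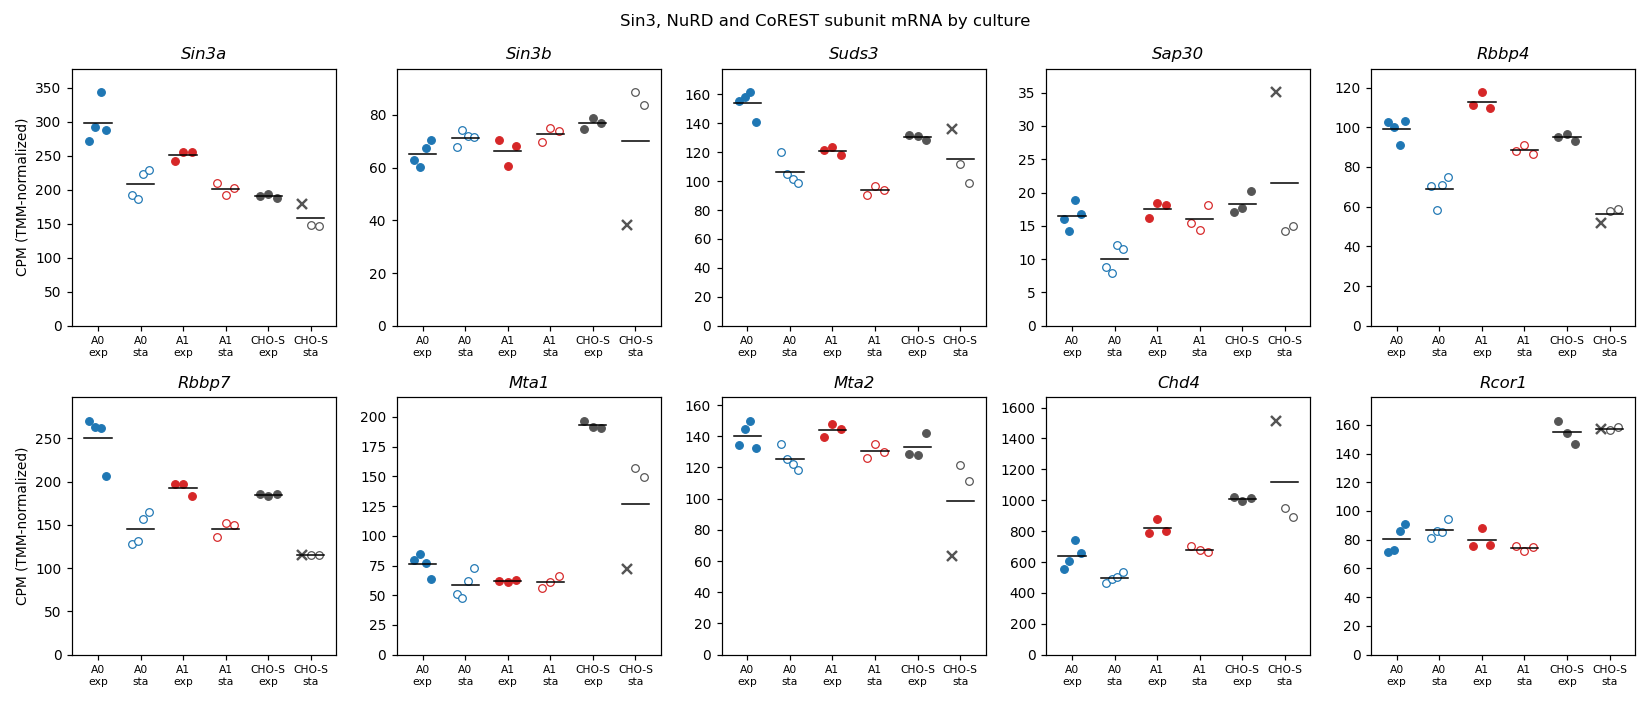
TMM-normalized CPM of each subunit in each of the 20 cultures, by line and phase (exp, exponential; sta, stationary), with filled points for exponential and open points for stationary cultures, a cross for CHO-S stationary culture 1 and a bar for the group mean. Mta1 and Rcor1 are highest in CHO-S, at 191 to 197 and 147 to 163 CPM in exponential cultures, and Sap30 is lowest in stationary A0, at 7.90 to 12.1 CPM.

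The size of the variation differed between subunits. Without CHO-S stationary culture 1, the difference between the highest and lowest of the 6 group means was 1.74 on the log2 scale for Mta1, a 3.35-fold range, beside a pooled SD within groups of 0.17. Rcor1 had a 2.12-fold range (1.09 on the log2 scale, SD 0.11). Rbbp7 spanned 2.17-fold, Chd4 2.04-fold and Sin3a 2.02-fold. Mta2 had the smallest span of the 10, 1.24-fold (0.31 on the log2 scale, SD 0.075). With culture 1, the smallest span was that of Sin3b, 1.18-fold (0.24 on the log2 scale), which was less than its SD within groups of 0.27. Mta2 then spanned 1.52-fold, Sin3a 1.89-fold, Chd4 2.19-fold, Rbbp7 2.16-fold, Rcor1 2.12-fold and Mta1 3.35-fold. Of 9 comparisons between groups, with all cultures, Chd4 passed the test in 8, Rbbp4 and Mta1 in 6, Suds3, Rbbp7 and Rcor1 in 5, Sin3a in 4, Sap30 in 3, Sin3b in 2, while Mta2 was past the threshold in none with edgeR. These comparisons share groups and are not independent. Leaving out CHO-S stationary culture 1, Chd4 passed in 9 of them, Sin3a, Suds3, Rbbp7 and Mta1 in 7, Rbbp4 in 6, Sin3b and Rcor1 in 5, Sap30 in 4 and Mta2 in 1, stationary against exponential CHO-S.

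The comparison of A1 with A0 asks how the subunits differ between an amplified high producer and its parent. At exponential phase, Chd4 was higher in A1 than in A0, and Suds3, Rbbp7 and Mta1 were lower. The log2 fold change of A1 over A0 was 0.36 ± 0.10 (SE, adjusted p = 0.017) for Chd4, -0.35 ± 0.087 (SE, adjusted p = 0.0077) for Suds3, -0.38 ± 0.10 (SE, adjusted p = 0.013) for Rbbp7 and -0.30 ± 0.10 (SE, adjusted p = 0.044) for Mta1 in edgeR's quasi-likelihood test. Thus 4 of 10 passed, beside 25.9% of the 19946 genes tested. Of the 9491 genes with 10 CPM or more, 38.3% passed, 18.2% higher and 20.1% lower. By direction, 1 was higher, beside 12% of all genes tested, and 3 were lower, beside 13.8%. The median log2 difference was 0.0072 over the 10 and -0.039 over all genes tested. Every A1 culture lay outside the range of the A0 cultures for 6 of the 10, beside 34.4% of all genes. Sin3a and Rbbp4 were among these 6 without passing the test, at -0.25 ± 0.094 (SE, adjusted p = 0.061 from edgeR) and 0.19 ± 0.087 (SE, adjusted p = 0.136 from edgeR). For Sin3b, Sap30, Mta2 and Rcor1 the 95% intervals of the log2 difference were -0.18 to 0.22, -0.17 to 0.35, -0.14 to 0.22 and -0.23 to 0.22. The deacetylases themselves split, with Hdac1 higher at 0.40 ± 0.093 (SE, adjusted p = 0.0054) and Hdac2 lower at -0.40 ± 0.092 (SE, adjusted p = 0.0051) in the same edgeR test. Without A1 culture 3, none of the 10 passed (5 had an unadjusted p under 0.05), with adjusted p of 0.053 for Suds3, 0.087 for Rbbp7, 0.127 for Mta1 and 0.063 for Chd4 from edgeR. Mta1 also lost its call when A0 culture 1, 2 or 3 or A1 culture 1 or 2 was left out (adjusted p 0.076 to 0.14), Chd4 when A0 culture 2 or A1 culture 1 or 2 was left out (0.052 to 0.11), and Sin3a passed without A0 culture 1 (0.03) or 4 (0.037). With all 6 groups in 1 fit, Mta1 (0.222) and Chd4 (0.065) lost their calls. Over the 17 alternative settings, Suds3 passed in 16, Rbbp7 in 15, Chd4 in 11, Mta1 in 8, Sin3a in 8 and Rbbp4 in 1.

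At stationary phase, Sap30, Rbbp4 and Chd4 were higher in A1 than in A0 and Rcor1 was lower. Sap30 had 15.98 ± 1.88 CPM (SD, n = 3) in A1 against 10.1 ± 2.02 CPM (SD, n = 4) in A0, which is 0.65 ± 0.16 (SE, adjusted p = 0.0052 from edgeR) on the log2 scale. The fold change was 0.35 ± 0.085 (SE, adjusted p = 0.0048) for Rbbp4, 0.44 ± 0.068 (SE, adjusted p = 0.00019) for Chd4 and -0.24 ± 0.076 (SE, adjusted p = 0.025) for Rcor1 in the same test. These 4 of 10 stood beside 33.7% of the 19293 genes tested. Of the 9486 genes with 10 CPM or more, 48.4% passed, 23.5% higher and 25% lower. In the stationary cultures 3 were higher, beside 16%, and 1 was lower, beside 17.7%. The median log2 difference was 0.032 over the 10 and -0.0021 over all genes. Suds3 was -0.19 ± 0.080 (SE, adjusted p = 0.079 from edgeR), with every A1 culture below every A0 culture. In all, 5 of the 10 did not overlap between the lines, beside 39.9% of all genes. For Sin3a, Sin3b, Rbbp7, Mta1 and Mta2 the values were -0.055, 0.017, -0.0054, 0.059 and 0.046, and none passed. Hdac1 was higher in A1 (0.63 ± 0.076 SE, adjusted p = 2.3e-05 from edgeR), and Hdac2 was -0.066 ± 0.085 (SE, adjusted p = 0.598 from edgeR). Rcor1 lost its call without A0 culture 4 (0.067) or any 1 of the A1 cultures (0.057 to 0.111), and Suds3 passed without A0 culture 4 (0.046). Rcor1 also lost it with all 6 groups in 1 fit (0.127). The 10 proliferation markers, which included Pcna and Ccna2, moved in this comparison too, with 7 higher in A1, none lower and a median of 0.46. The 7 stood beside 16% of all genes and 23.5% of those with 10 CPM or more. The summed level of the markers was 2627 to 2846 CPM in A1 and 1387 to 2372 CPM in A0, and their part in the differences of the subunits was not tested.

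**Figure D2:**
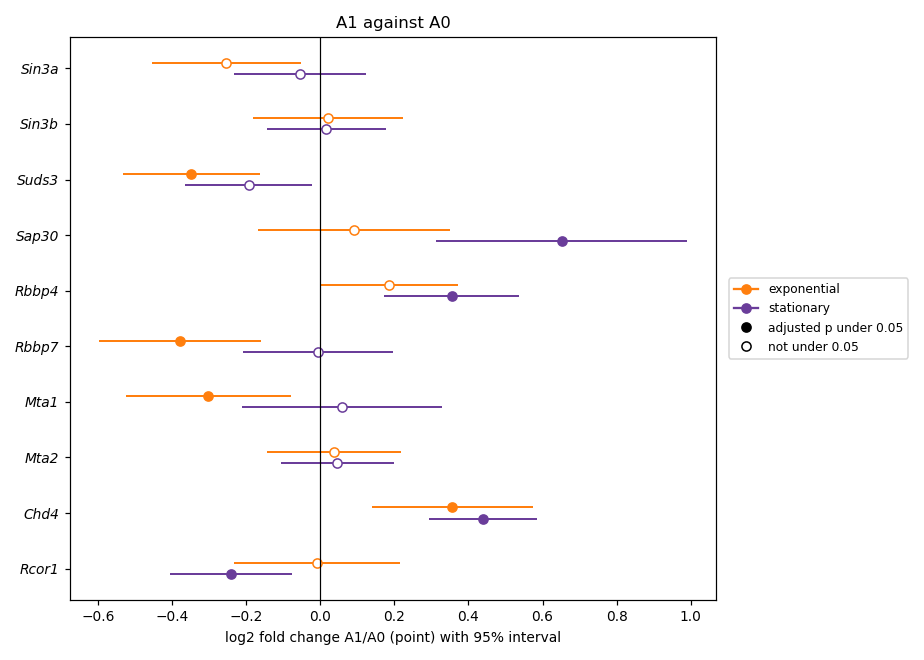
Log2 fold change of A1 over A0 for each subunit at exponential and stationary phase (points) with 95% intervals (lines), filled where the adjusted p was under 0.05. Chd4 lies above 0 at both phases, at 0.36 and 0.44, and the difference for Sap30 is 0.093 at exponential and 0.65 at stationary phase.

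Whether the difference between A1 and A0 itself differed between the phases was tested with the interaction of line and phase. Without the culture as a block, none of the 10 subunits passed with edgeR, beside 8.94% of the 20953 genes tested, while 3 had an unadjusted p under 0.05. Of the 9491 genes with 10 CPM or more, 16.1% passed, 9.09% higher and 7.04% lower. DESeq2 called none of the subunits either (2 with an unadjusted p under 0.05). The largest interaction was that of Sap30, 0.56 ± 0.20 (SE, adjusted p = 0.085 from edgeR), followed by Rbbp7 at 0.37 ± 0.14 (SE, adjusted p = 0.111 from edgeR) and Mta1 at 0.36 ± 0.17 (SE, adjusted p = 0.213 from edgeR). Rcor1 was at -0.23, Sin3a at 0.20, Rbbp4 at 0.17, Suds3 at 0.15, Chd4 at 0.084, Mta2 at 0.0087 and Sin3b at -0.0045. Deviations from group means correlated between phases at every A0 culture number, while in A1 the correlations were -0.15, -0.13 and 0.19. The labels do not state a pairing. Since A0 cultures 1 and 2 differed from 3 and 4, this check cannot tell pairing of cultures from that split. With the culture as a block, Sap30 (0.56, adjusted p = 0.013), Rbbp7 (0.37, adjusted p = 0.017) and Mta1 (0.37, adjusted p = 0.041) passed in edgeR. These 3 of 10 stood beside 16.4% of all genes. The share of genes with 10 CPM or more was not computed for the blocked fit, and without the block it was above that of all genes. The p-values of the blocked fit rest on a spread borrowed from all genes. Hdac1 and Hdac2 were at 0.23 and 0.33 without the block, where neither passed, and at 0.23 and 0.33 with it, where Hdac2 passed (adjusted p = 0.038 from edgeR). With A0 cultures 1 and 2 alone the interaction was 0.72 for Mta1 and 0.63 for Rbbp7, and 5 of the 10 passed. With A0 cultures 3 and 4 alone it was 0.049 and 0.14, and none passed in edgeR (2 with an unadjusted p under 0.05). Rbbp7 also passed without exponential A0 culture 4 (0.016), and Sap30 without stationary A0 culture 3 (0.041).

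Stationary cultures were set against exponential cultures of the same line to see how the subunits move with growth phase. In A0, 7 of the 10 fell and none rose, beside 37.7% of the 20267 genes tested in either direction and 20.1% lower. Of the 9488 genes with 10 CPM or more, 55.5% passed, 21.8% higher and 33.7% lower. The median log2 change was -0.46 over the 10 and 0.0013 over all genes. Rbbp7 had 250.5 ± 29.5 CPM (SD, n = 4) at exponential and 145 ± 18.3 CPM (SD, n = 4) at stationary phase, a log2 fold change of -0.80 ± 0.11 (SE, adjusted p = 3.7e-05 from edgeR). Sap30 changed by -0.72 ± 0.15 (SE, adjusted p = 0.0012), Suds3 by -0.55 ± 0.095 (SE, adjusted p = 0.00023), Rbbp4 by -0.54 ± 0.10 (SE, adjusted p = 0.00037) and Sin3a by -0.53 ± 0.10 (SE, adjusted p = 0.00066) in the same edgeR test. Chd4 changed by -0.38 ± 0.10 (SE, adjusted p = 0.0083 from edgeR) and Mta1 by -0.40 ± 0.13 (SE, adjusted p = 0.025 from edgeR). The phases did not overlap for 6 of the 10, beside 35.8% of all genes, and Mta1 overlapped. Mta1 rested on A0 cultures 1 and 2. From these alone its change came to -0.75, against -0.059 from cultures 3 and 4 (adjusted p = 0.776 from edgeR). It also lost its call without exponential culture 1, 2 or 3 or stationary culture 1 or 2 (0.053 to 0.088), and with all 6 groups in 1 fit (0.052). Sin3b, Mta2 and Rcor1 did not pass, with intervals of -0.075 to 0.31, -0.36 to 0.015 and -0.11 to 0.32.

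In A1, 5 of the 10 fell and none rose, beside 33.4% of the 18548 genes in either direction and 17.8% lower. Of the 9488 genes with 10 CPM or more, 52.5% passed, 20.7% higher and 31.8% lower. Rbbp7 changed by -0.38 ± 0.060 (SE, adjusted p = 6.8e-06), Suds3 by -0.35 ± 0.061 (SE, adjusted p = 2.6e-05), Rbbp4 by -0.33 ± 0.061 (SE, adjusted p = 6.6e-05), Sin3a by -0.30 ± 0.056 (SE, adjusted p = 8.9e-05) and Chd4 by -0.26 ± 0.052 (SE, adjusted p = 0.00021) in edgeR's test. The median over the 10 was -0.19 and that over all genes 0.032. The phases did not overlap for 6, beside 43.1% of all genes. Sap30 and Mta1, which fell in A0, had -0.11 and 0.0095 in A1, with intervals of -0.34 to 0.12 and -0.14 to 0.15. Sin3b, Mta2 and Rcor1 had 0.15, -0.12 and -0.090 and did not pass. With all 6 groups in 1 fit, Sin3a (0.085) and Chd4 (0.268) lost their calls. Without TMM, the share of called genes that were higher moved from 46.7% to 57.6% in A1. Hdac1 and Hdac2 fell as well, with -0.60 and -0.75 in A0 and -0.33 and -0.37 in A1 on the log2 scale.

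In CHO-S, the count of changed subunits depended on culture 1 of the stationary phase. With all 3 cultures, Rbbp4 (-0.75 ± 0.13 SE, adjusted p = 0.011 from edgeR) and Rbbp7 (-0.68 ± 0.12 SE, adjusted p = 0.012 from edgeR) fell and the other 8 did not pass, beside 13.3% of the 17367 genes in either direction and 6.48% lower. Of the 9468 genes with 10 CPM or more, 17.1% passed, 6.76% higher and 10.3% lower. The 8 were Mta1 at -0.58, Mta2 at -0.40, Sin3a at -0.27, Suds3 at -0.18, Sap30 at -0.14, Sin3b at -0.072, Rcor1 at 0.030 and Chd4 at 0.15. The median was -0.23 over the 10 and 0.023 over all genes. The phases did not overlap for 5 of the 10, beside 36.4% of all genes, and for 9 without stationary culture 1, beside 61.5%. Both calls were lost without any 1 exponential culture or without stationary culture 2 or 3 (0.053 to 0.091). Without stationary culture 1, 8 fell, beside 24.7% of all genes lower, and 1 rose, beside 23.1% (47.7% in all). Of the 9468 genes with 10 CPM or more, 68.6% passed, 28.5% higher and 40.1% lower. The values were then -0.70 ± 0.060 (SE, adjusted p = 1.9e-18 from edgeR) for Rbbp4 and -0.68 ± 0.051 (SE, adjusted p = 9.9e-22 from edgeR) for Rbbp7. Sin3a changed by -0.36, Sap30 by -0.33, Mta1 by -0.32, Suds3 by -0.29, Mta2 by -0.18 and Chd4 by -0.13. Sin3b rose by 0.18 (adjusted p = 0.0071 from edgeR). Rcor1 was 0.029, with an interval of -0.070 to 0.13. For Chd4 and Sin3b the direction turned between the fits. The p-values without culture 1 rest on 5 cultures and a spread borrowed from all genes, with 88.1 moderated degrees of freedom against 7.50 with it. Hdac1 and Hdac2 were at -0.28 and -0.010 with culture 1 and did not pass, and at -0.32 and -0.46 without it, both lower.

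**Figure D3:**
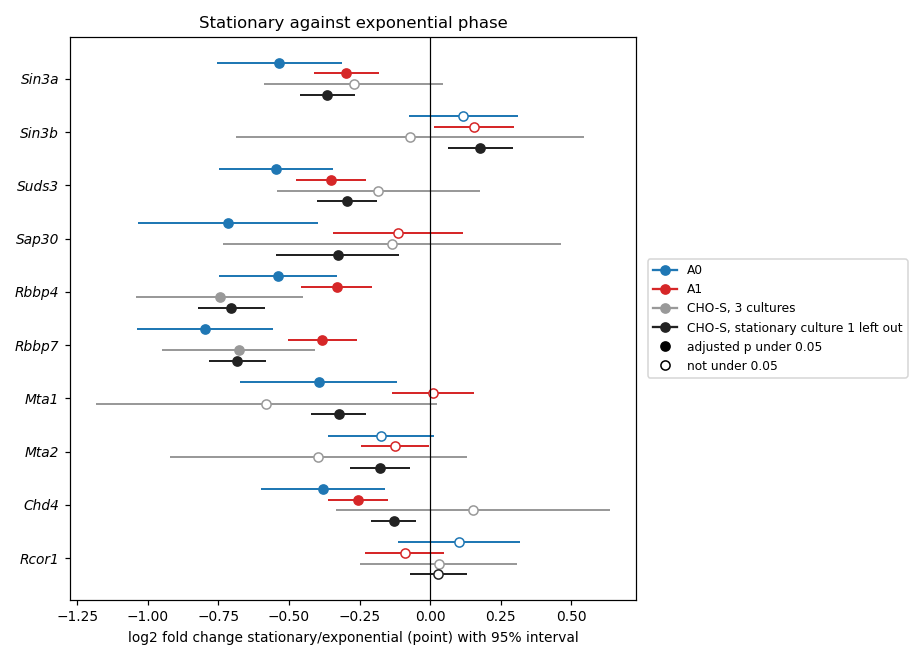
Log2 fold change of stationary over exponential phase in A0, A1 and CHO-S, the last with all 3 stationary cultures and without culture 1 (points), with 95% intervals (lines), filled where the adjusted p was under 0.05. Rbbp4 and Rbbp7 lie below 0 in every line, from -0.33 to -0.80, and the points of Rcor1 are all open.

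Set side by side, Rbbp4 and Rbbp7 passed as lower at stationary phase in all 3 lines. Sin3a, Suds3 and Chd4 passed in A0 and A1, and in CHO-S without culture 1. Sin3b and Rcor1 passed as lower in none of them (edgeR). The proliferation markers moved in the same comparisons, with 9 of 10 lower in A0 (median -1.08) beside 20.1% of all genes, and 9 of 10 in A1 (-0.49) beside 17.8%. In CHO-S, 6 of 10 were lower (-0.80) beside 6.48% with culture 1 and 10 of 10 (-0.85) beside 24.7% without it. Of genes with 10 CPM or more, 33.7% were lower in A0 and 31.8% in A1. In CHO-S 10.3% of these were lower with culture 1 and 40.1% without it. The summed level of the markers was 4138 to 4728 CPM in exponential and 1387 to 2372 CPM in stationary A0. It was 3871 to 4016 and 2627 to 2846 CPM in A1, and 3918 to 4007 and 2082 to 2743 CPM in CHO-S, the last without culture 1 at 2082 to 2103 CPM. Their part in the fall of the subunits was not tested.

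CHO-S served to place A0 and A1 beside another CHO line, and both comparisons share the CHO-S cultures. A0 and A1 come from a different line than CHO-S and carry the antibody plasmids, and A1 was amplified with methotrexate. These differences cannot be told apart here, and the labels do not explain NDST. At exponential phase, Mta1, Rcor1, Chd4 and Sin3b were lower in A0 than in CHO-S, and Sin3a, Rbbp7 and Suds3 were higher. Mta1 had 76.4 ± 9.24 CPM (SD, n = 4) in A0 and 193 ± 3.19 CPM (SD, n = 3) in CHO-S, a log2 difference of -1.33 ± 0.10 (SE, adjusted p = 5.4e-08 from edgeR). Rcor1 differed by -0.93 ± 0.10 (SE, adjusted p = 1.8e-06), Chd4 by -0.65 ± 0.10 (SE, adjusted p = 6.5e-05) and Sin3b by -0.22 ± 0.085 (SE, adjusted p = 0.041) in the edgeR test. Sin3a was higher by 0.66 ± 0.093 (SE, adjusted p = 3.4e-05), Rbbp7 by 0.45 ± 0.10 (SE, adjusted p = 0.0016) and Suds3 by 0.25 ± 0.082 (SE, adjusted p = 0.021) in it. These 7 of 10 stood beside 49.5% of the 19966 genes tested, with 3 higher beside 27.6% and 4 lower beside 21.9%. Of the 9495 genes with 10 CPM or more, 65.9% passed, 33.7% higher and 32.2% lower. The lines did not overlap for 7, beside 53.8% of all genes. The median was -0.033 over the 10 and 0.14 over all genes. Sap30, Rbbp4 and Mta2 did not pass, at -0.14, 0.073 and 0.089, with intervals of -0.40 to 0.12, -0.10 to 0.25 and -0.092 to 0.27. Sin3b lost its call without A0 culture 1 or 2 or any 1 of the CHO-S cultures (0.053 to 0.125), and Suds3 without A0 culture 2 or any 1 of the CHO-S cultures (0.063 to 0.103). Both lost it with all 6 groups in 1 fit too (0.179 and 0.07).

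A1 against CHO-S also had 7 called subunits at exponential phase, beside 57.2% of the 18488 genes. Of the 9495 genes with 10 CPM or more, 76.9% passed, 37.6% higher and 39.3% lower. Mta1 differed by -1.64 ± 0.048 (SE, adjusted p = 2.1e-18), Rcor1 by -0.96 ± 0.058 (SE, adjusted p = 1.1e-12), Chd4 by -0.30 ± 0.042 (SE, adjusted p = 1.3e-06) and Sin3b by -0.22 ± 0.061 (SE, adjusted p = 0.0041), all lower in A1 in edgeR's test. Suds3 was lower by a small margin, -0.11 ± 0.046 (SE, adjusted p = 0.041 from edgeR), where in A0 it was higher than in CHO-S. Sin3a (0.39 ± 0.043 SE, adjusted p = 3.9e-08 from edgeR) and Rbbp4 (0.24 ± 0.050 SE, adjusted p = 0.00018 from edgeR) were higher. The 5 lower stood beside 27.1% and the 2 higher beside 30.0% of all genes. The lines did not overlap for 7 of the 10, beside 61.9%. The median was -0.088 over the 10 and 0.055 over all genes. Sap30, Rbbp7 and Mta2 did not pass, with intervals of -0.26 to 0.14, -0.036 to 0.15 and 0.0062 to 0.21. Suds3 lost its call without A1 culture 3 or any 1 of the CHO-S cultures (0.06 to 0.1), and Mta2 passed without CHO-S culture 3 (0.016). With all 6 groups in 1 fit, the calls of Chd4 (0.122), Sin3b (0.296), Rbbp4 (0.066) and Suds3 (0.495) were lost, and Mta1, Rcor1 and Sin3a passed. Hdac1 differed from exponential CHO-S by -0.038 ± 0.090 (SE, adjusted p = 0.748) in A0 and 0.34 ± 0.040 (SE, adjusted p = 8.7e-08) in A1, and Hdac2 by 0.24 ± 0.089 (SE, adjusted p = 0.036) and -0.17 ± 0.046 (SE, adjusted p = 0.0024) in edgeR's test.

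At stationary phase, Mta1, Rcor1 and Chd4 were again below the CHO-S level in A0 and in A1, with and without CHO-S culture 1. In A0 against CHO-S the values with all cultures were -1.19 ± 0.19 (SE, adjusted p = 0.00066) for Chd4, -1.16 ± 0.25 (SE, adjusted p = 0.0038) for Mta1, -0.87 ± 0.13 (SE, adjusted p = 0.00043) for Rcor1 and -0.85 ± 0.29 (SE, adjusted p = 0.04) for Sap30 in edgeR's test. These 4 lower stood beside 19.3% of the 19007 genes tested, none was higher beside 20.7%, and 40.0% passed in either direction. Of the 9495 genes with 10 CPM or more, 48.5% passed, 23.3% higher and 25.3% lower. The other 6 did not pass, with Sin3a at 0.38, Rbbp7 at 0.32, Mta2 at 0.30, Rbbp4 at 0.26, Sin3b at -0.050 and Suds3 at -0.12. The median was -0.086 over the 10 and 0.080 over all genes. Without culture 1, Chd4 was -0.87 ± 0.083 (SE, adjusted p = 3.1e-06 from edgeR), Mta1 -1.37 ± 0.14 (SE, adjusted p = 4.9e-06 from edgeR), Rcor1 -0.84 ± 0.083 (SE, adjusted p = 4.2e-06 from edgeR) and Sap30 -0.51 ± 0.18 (SE, adjusted p = 0.031 from edgeR). Sin3b was then lower too (-0.26 ± 0.086 SE, adjusted p = 0.024 from edgeR), and Sin3a (0.51 ± 0.10 SE, adjusted p = 0.0011 from edgeR) and Rbbp7 (0.36 ± 0.11 SE, adjusted p = 0.019 from edgeR) were higher. That made 7 of 10, beside 51.8% of all genes, with 2 higher beside 28% and 5 lower beside 23.8%. Of the 9495 genes with 10 CPM or more, 68.8% passed, 35.6% higher and 33.1% lower. Suds3, Rbbp4 and Mta2 did not pass then, at 0.026, 0.25 and 0.12, with intervals of -0.19 to 0.24, 0.024 to 0.48 and -0.072 to 0.31. The lines did not overlap for 5 of the 10 with culture 1, beside 45.1% of all genes, and for 7 without it, beside 63.1%. Sap30 lost its call without A0 culture 1, 2 or 4 (0.057 to 0.093).

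In A1 against stationary CHO-S with all cultures, Rbbp4 was higher (0.63 ± 0.14 SE, adjusted p = 0.0096 from edgeR), and Rcor1 (-1.10 ± 0.14 SE, adjusted p = 0.00052 from edgeR), Mta1 (-1.09 ± 0.27 SE, adjusted p = 0.014 from edgeR) and Chd4 (-0.74 ± 0.21 SE, adjusted p = 0.027 from edgeR) were lower. The 4 of 10 stood beside 34.8% of the 18243 genes, 18.2% higher and 16.6% lower. Of the 9495 genes with 10 CPM or more, 40.4% passed, 19.8% higher and 20.7% lower. The other 6 did not pass, with Mta2 at 0.35, Sin3a at 0.34, Rbbp7 at 0.32, Suds3 at -0.31, Sap30 at -0.13 and Sin3b at -0.020. The median was -0.076 over the 10 and 0.062 over all genes. Without TMM, the share of called genes that were higher moved from 52.3% to 63.3%. Without CHO-S culture 1, 8 of 10 passed, beside 57.4%, with 3 higher beside 29.9% and 5 lower beside 27.5%. Of the 9495 genes with 10 CPM or more, 75.4% passed, 37.9% higher and 37.5% lower. The moderated degrees of freedom were 85.3 in this fit against 8.36 with culture 1. Mta1 was then -1.34 ± 0.074 (SE, adjusted p = 8.8e-30 from edgeR), Rcor1 -1.11 ± 0.071 (SE, adjusted p = 1.1e-25 from edgeR) and Chd4 -0.46 ± 0.062 (SE, adjusted p = 2.9e-10 from edgeR), and Rbbp4 was 0.58 ± 0.079 (SE, adjusted p = 4.7e-10 from edgeR). Sin3a (0.42) and Rbbp7 (0.32) joined the higher and Sin3b (-0.27) and Suds3 (-0.20) the lower subunits, with adjusted p of 9.2e-08, 5.1e-05, 0.0014 and 0.015 from edgeR. Sap30 and Mta2 did not pass, at 0.11 and 0.13, with intervals of -0.16 to 0.38 and -0.0099 to 0.27. The lines did not overlap for 8 with culture 1, beside 48.8% of all genes, and for 9 without it, beside 68.9%. With all CHO-S cultures, Mta1 lost its call without A1 culture 1 or 2 or CHO-S culture 2 (0.056 to 0.075), Chd4 without any 1 of the A1 cultures (0.097 to 0.105) and Rbbp4 without A1 culture 2 (0.052). Against stationary CHO-S, Hdac1 was at -0.37 in A0 and 0.27 in A1 with culture 1, and at -0.30 and 0.30 without it, with adjusted p of 0.056, 0.166, 0.012 and 6.4e-05 from edgeR. Hdac2 was at -0.50 and -0.57 with it and at -0.028 and -0.12 without it, with adjusted p of 0.15, 0.176, 0.834 and 0.123 from edgeR.

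**Figure D4:**
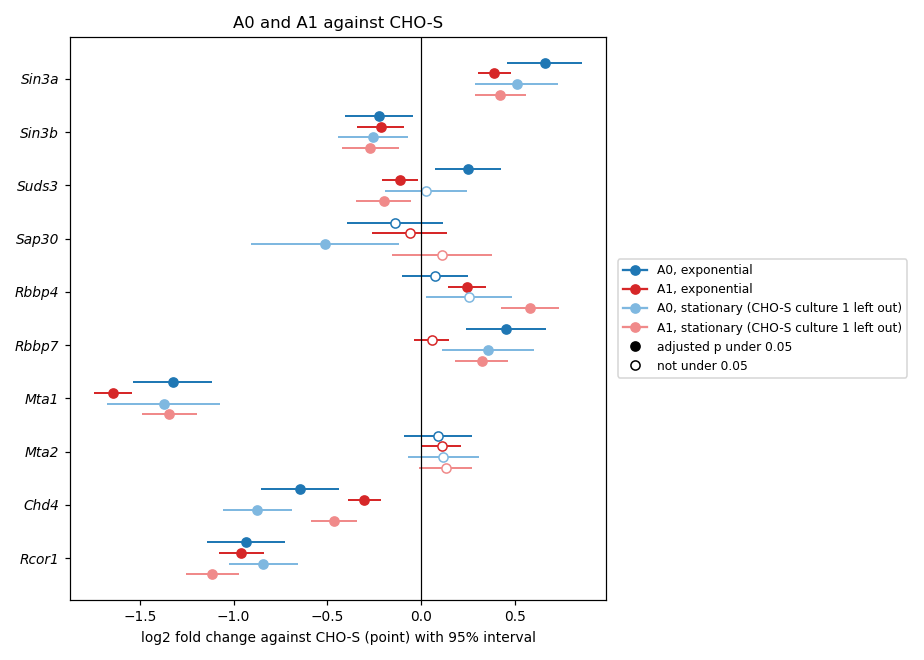
Log2 fold change of A0 and of A1 over CHO-S at exponential phase and at stationary phase without CHO-S culture 1 (points), with 95% intervals (lines), filled where the adjusted p was under 0.05. For Mta1 the 4 values lie between -1.33 and -1.64, for Rcor1 between -0.84 and -1.11, and Mta2 has none filled.

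Within-culture ratios set the paralogs of a complex side by side and do not depend on scaling between cultures. They are ratios of read counts, so that their change between groups can be read but not their absolute value, and they were not tested. The ratio of Mta1 to Mta2 was 1.46 ± 0.100 (SD, n = 3) in exponential and 1.26 ± 0.100 (SD, n = 3) in stationary CHO-S, where it was 1.32 ± 0.0332 (SD, n = 2) without culture 1. In A0 it was 0.544 ± 0.0564 (SD, n = 4) and then 0.471 ± 0.113 (SD, n = 4), and in A1 0.431 ± 0.0145 (SD, n = 3) and then 0.470 ± 0.0367 (SD, n = 3). Every CHO-S culture, the shallow one included, lay above every A0 and A1 culture. The ratio of Rbbp4 to Rbbp7 was 0.379, 0.381, 0.347 and 0.499 in exponential and 0.551, 0.444, 0.452 and 0.456 in stationary A0. It was 0.564, 0.596 and 0.597 in exponential and 0.650, 0.598 and 0.579 in stationary A1, so that the A1 cultures lay above all A0 and CHO-S cultures, the latter at 0.446 to 0.529. The ratio of Sin3a to Sin3b went from 4.58 ± 0.461 (SD, n = 4) to 2.91 ± 0.307 (SD, n = 4) in A0 and from 3.80 ± 0.400 (SD, n = 3) to 2.78 ± 0.223 (SD, n = 3) in A1 between the phases, without overlap in either line. In CHO-S it went from 2.48 ± 0.0579 (SD, n = 3) to 1.71 ± 0.0513 (SD, n = 2) without culture 1, which itself stood at 4.70.

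**Figure D5:**
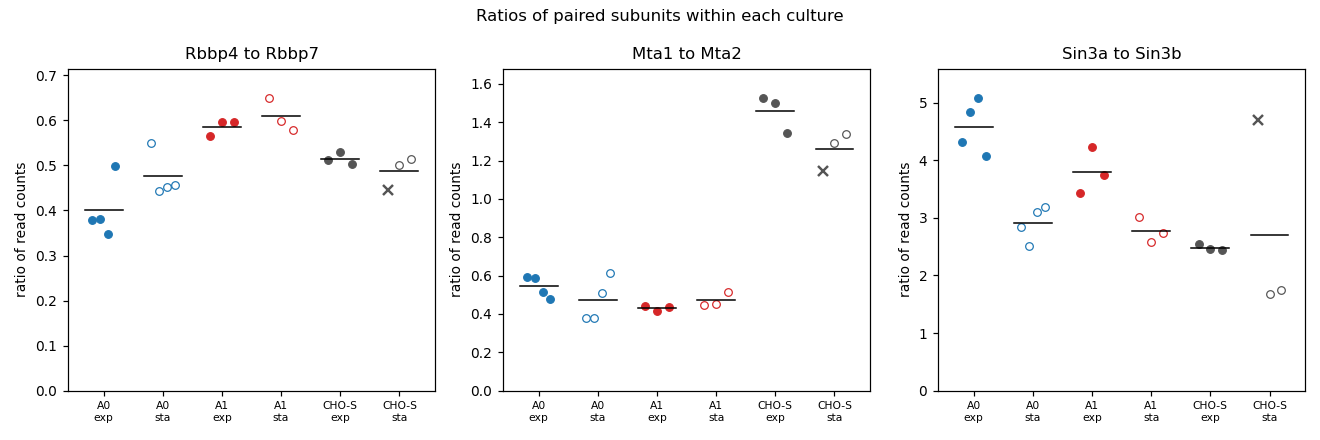
Ratio of read counts of Rbbp4 to Rbbp7, Mta1 to Mta2 and Sin3a to Sin3b in each of the 20 cultures, by line and phase (exp, exponential; sta, stationary), with filled points for exponential and open points for stationary cultures, a cross for CHO-S stationary culture 1 and a bar for the group mean. Mta1 to Mta2 lies between 1.15 and 1.53 in CHO-S and between 0.379 and 0.613 in A0 and A1.

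The remaining subunits of the same complexes were described from lists of known members, by how many passed. Most shares set beside these counts are of all genes. The shares of genes with 10 CPM or more, given above with the 10 subunits, were in most comparisons higher. Of 13 other Sin3 subunits, 3 were higher and 2 lower in A1 than in A0 at stationary phase, beside 16% and 17.7% of all genes, and 1 higher and 3 lower at exponential phase, beside 12% and 13.8%, with medians of 0.0072 and -0.038. Sap130 (0.49 ± 0.10 SE, adjusted p = 0.0011) and Brms1l (0.46 ± 0.11 SE, adjusted p = 0.0049) had the smallest adjusted p in edgeR at stationary phase, both higher. At exponential phase Phf12 (-0.45 ± 0.11 SE, adjusted p = 0.0082) and Ing2 (-0.44 ± 0.13 SE, adjusted p = 0.019), a PHD finger reader of methylated histone H3, were lower in the same test. With the stationary phase, 7 of the 13 fell in A0 and 5 in A1, and none rose. The shares of all genes that fell were 20.1% and 17.8%, and of genes with 10 CPM or more 33.7% and 31.8%. The 13 had medians of -0.45 and -0.11, with Ing2 (-1.16 and -0.70) and the metastasis suppressor Brms1 (-0.92 and -0.47) at the smallest adjusted p in both lines. In CHO-S none passed with culture 1 (edgeR, 2 with an unadjusted p under 0.05), and 9 fell without it, beside 6.48% and 24.7% of all genes. Against CHO-S at exponential phase, 4 were higher and 3 lower in A0, beside 27.6% and 21.9%, and 2 higher and 7 lower in A1, beside 30.0% and 27.1%, with the demethylase Kdm5a lower in both (-0.76 and -0.55). At stationary phase, 1 was higher and 3 lower in A0 with CHO-S culture 1, beside 20.7% and 19.3%, and 2 and 3 without it, beside 28% and 23.8%. In A1, 1 was higher and 1 lower with it, beside 18.2% and 16.6%, and 2 and 5 without it, beside 29.9% and 27.5%.

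Of 8 other NuRD subunits, 3 were lower in A1 than in A0 at exponential phase, beside 13.8% of all genes, and none higher, among them Cdk2ap1 (-0.47 ± 0.11 SE, adjusted p = 0.005) and the remodeler Chd3 (-0.45 ± 0.13 SE, adjusted p = 0.019) in edgeR's test. At stationary phase Gatad2a was lower (-0.28 ± 0.065 SE, adjusted p = 0.0041) and its paralog Gatad2b higher (0.25 ± 0.084 SE, adjusted p = 0.033) in A1, beside 17.7% lower and 16% higher over all genes. With the stationary phase, 4 of 8 fell and 1 rose in A0, beside 20.1% and 17.7% of all genes and 33.7% and 21.8% of those with 10 CPM or more. In A1, 4 fell and 3 rose, beside 17.8% and 15.6% of all genes and 31.8% and 20.7% of those with 10 CPM or more. Cdk2ap1 fell (-1.09 and -0.70) and the remodeler Chd5 rose (0.78 and 0.94). In CHO-S 1 fell and 1 rose with culture 1, Chd3 (-0.97) and Chd5 (1.05), beside 6.48% and 6.81% of all genes, and 5 fell and 1 rose without it, beside 24.7% and 23.1%. The values of Chd3 and Chd5 in CHO-S are given from the fit with culture 1 only. Against exponential CHO-S, 2 were higher and 4 lower in A0, beside 27.6% and 21.9%, and 1 higher and 5 lower in A1, beside 30.0% and 27.1%. Against stationary CHO-S, 1 was higher and 4 lower in A0 with culture 1, and 2 and 4 without it, while in A1 none was higher and 3 lower with it, and 2 and 4 without it, beside the same shares as for the Sin3 subunits. At exponential phase, Gatad2b was below the CHO-S level in A0 and in A1, at -1.02 ± 0.089 (SE, adjusted p = 3e-07) and -1.10 ± 0.050 (SE, adjusted p = 4.3e-15) on the log2 scale in edgeR's test.

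Most of the 9 other CoREST subunits were below the CHO-S level in A0 and A1. At exponential phase 6 of 9 were lower in A0 and 7 of the 8 tested were lower in A1, with none higher. The shares of all genes that were lower were 21.9% and 27.1%, and of genes with 10 CPM or more 32.2% and 39.3%. The medians of the CoREST subunits were -0.65 and -0.65. The demethylase Kdm1a was lower in A0 (-0.69 ± 0.082 SE, adjusted p = 6.6e-06 from edgeR), and so was the Rcor1 paralog Rcor3 (-0.76 ± 0.10 SE, adjusted p = 2.1e-05 from edgeR). In A1 the smallest adjusted p belonged to Gse1 (-1.47 ± 0.10 SE, adjusted p = 3.5e-12 from edgeR) and Zmym2 (-0.67 ± 0.050 SE, adjusted p = 4.8e-11 from edgeR). At stationary phase, Hmg20b stood above the CHO-S level in A0 (1.11 ± 0.22 SE, adjusted p = 0.0025 from edgeR) and A1 (0.73 ± 0.22 SE, adjusted p = 0.032 from edgeR), named here after its values were seen. It was the 1 higher in each, with 5 of 9 lower in A0 and 6 of 8 in A1, beside 20.7% higher and 19.3% lower over all genes for A0 and 18.2% and 16.6% for A1. Without CHO-S culture 1, 1 was higher and 5 lower in A0, beside 28% and 23.8% of all genes. In A1, 1 was higher and 7 lower without it, beside 29.9% and 27.5%. Hmg20b was then at 0.95 in A0 and 0.53 in A1. With the stationary phase, 4 of 9 rose and none fell in A0 and likewise in A1, beside 17.7% and 15.6% higher over all genes, with Hmg20b at 0.53 and 0.19. In CHO-S 1 of the 8 tested rose with culture 1, Gse1 at 1.09, beside 6.81% of all genes, and 3 rose and 1 fell without it, beside 23.1% and 24.7%. The value of Gse1 in CHO-S is given from the fit with culture 1 only. In A1 against A0, 1 was higher and 3 lower at exponential phase, beside 12% and 13.8%, with Kdm1a at 0.30 ± 0.087 (SE, adjusted p = 0.019) and Gse1 at -0.79 ± 0.13 (SE, adjusted p = 0.00036) in edgeR's test. At stationary phase 3 were lower, beside 17.7%, among them Hmg20b (-0.39 ± 0.10 SE, adjusted p = 0.0065 from edgeR).

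Among 7 partners of Rbbp4 and Rbbp7 outside these complexes, the Polycomb proteins Ezh2, Eed and Suz12, the chromatin assembly subunits Chaf1a and Chaf1b, Hat1 and Bptf, 6 fell with the stationary phase in A0 and 5 in A1, and none rose. The shares of all genes that fell were 20.1% and 17.8%, and of genes with 10 CPM or more 33.7% and 31.8%. Chaf1a changed by -1.71 ± 0.14 (SE, adjusted p = 1.5e-07) in A0 and -0.74 ± 0.070 (SE, adjusted p = 6.6e-10) in A1 in edgeR's test. In A1 against A0, 4 were higher at stationary phase, beside 16% of all genes and 23.5% of those with 10 CPM or more. Chaf1a was at 0.84 ± 0.14 (SE, adjusted p = 0.00039) and Ezh2 at 0.47 ± 0.095 (SE, adjusted p = 0.0015) in edgeR's test. At exponential phase 1 was lower, beside 13.8% of all genes and 20.1% of those with 10 CPM or more, Chaf1b at -0.58 ± 0.095 (SE, adjusted p = 0.0004 from edgeR). Suz12 at exponential phase was below the CHO-S level in A0 and A1, at -1.42 ± 0.092 (SE, adjusted p = 1.3e-08) and -1.69 ± 0.065 (SE, adjusted p = 2.5e-16) in edgeR's test. In CHO-S, 3 of the 7 fell with the stationary phase with culture 1, beside 6.48% of all genes, and 7 without it, beside 24.7%. Against exponential CHO-S, 3 were higher and 1 lower in A0, beside 27.6% and 21.9%, and 2 higher and 3 lower in A1, beside 30.0% and 27.1%. Against stationary CHO-S, 2 were lower and none higher in A0 with and without culture 1, while in A1 1 was higher and 1 lower with it, and 2 and 2 without it, again beside the shares given for the Sin3 subunits. These values stand beside the falls of Rbbp4 and Rbbp7 in the same cultures, and no relation between them was tested.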

How the data were processed

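RNA-seq libraries of A0, A1 and CHO-S were analysed from the deposited table of counts, whole reads per gene that the authors made with STAR 2.5.4b and HTSeq-count 0.7.2 per the submitters' processing notes, on the Chinese hamster assembly C_griseus_v1.0. The kit was stranded, and the strand setting of the counting is not given in the sources used here. Reads with several alignments (12.7% to 14.8% per library) were left out of the deposited counts, so a gene with near-identical copies loses reads. The 5 summary lines of HTSeq were kept out. The libraries of 1 culture were summed.

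Each comparison was fitted on its own groups in edgeR 4.0.16 (R 4.3.3, limma 3.58.1) with TMM and the quasi-likelihood F-test, two-sided, over every gene that had 1 count or more in 2 or more cultures and varied. P-values were adjusted over all genes tested by Benjamini-Hochberg, with 0.05 as the threshold. SE is the absolute log2 fold change divided by the square root of F, and intervals are 95%. The F-test moderates the spread of each gene with a spread borrowed from all genes. The moderated degrees of freedom were 15.2 in exponential A1 against A0 and 22.1 in exponential A1 against CHO-S. In stationary against exponential A1 they were 30.0. CPM come from 1 TMM scaling over the 20 cultures. Alternatives were DESeq2 1.42.0, its size factors, library totals, filterByExpr, no filter, a replicate block, all groups in 1 fit, parts of the A0 libraries, and each culture left out. The replicate number was checked as a pair by correlating deviations from group means across 10588 genes, which gave 0.44, 0.32, 0.27 and 0.19 for A0 across phases, while in A1 and CHO-S not every pair passed 0.1. On simulated data with 200 genes changed by 1 on the log2 scale, 76.0% to 100.0% were recovered with 1 to 13 false calls, over 16756 to 20439 genes per comparison. The median absolute log2 value of the 10 subunits was 0.13 to 0.46 over the comparisons, and changes of that size were not simulated. Figures were drawn with matplotlib 3.10.9 in Python 3.11.15.

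The 10 subunits and the lists of other genes were chosen with earlier results of these data known. The rule for named genes was all 10 subunits in each comparison, Hdac1 and Hdac2, and from each further list at most the 2 called genes with the smallest adjusted p, with a repeat of such a gene in another comparison where it is set beside its first value. Of 63 list genes, 62 were found by symbol, Sinhcaf under its older symbol Fam60a. Tbl1x was not analysed here. Some genes of the lists are counted but not reported by name here. The authors' library named NDST was taken as CHO-S from its labels.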

Additional observations from a re-analysis of the deposited data

Results flagged for a closer look

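Within A0, 26 sets of 4 cultures were searched for a single culture that stood apart by Dixon's test, and 2 did, where chance gives about 1 in 20. Rbbp7 in exponential A0 had its lowest culture, culture 4 at 207 CPM, apart from the other 3 at 262 to 270.2 CPM, with a gap of 0.871 of the group's range. The ratio of Rbbp4 to Rbbp7 in stationary A0 had its highest culture, culture 1 at 0.551, apart from 0.444 to 0.456 in the others, with a gap of 0.886 of the range. Without exponential culture 4 the difference of Rbbp7 between A1 and A0 was -0.46 in place of -0.38, and the change with the stationary phase in A0 was -0.87 in place of -0.80, all on the log2 scale.

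The difference between A1 and A0 differed between the phases for other genes named here, by the interaction of line and phase without the culture as a block, in the sense of a smaller fall or a higher stationary level in A1 than in A0. In the Sin3 complex these were Phf12 (0.59 ± 0.14 SE, adjusted p = 0.01 from edgeR) and Brms1l (0.57 ± 0.15 SE, adjusted p = 0.016 from edgeR). The chromatin assembly subunits Chaf1a (0.93 ± 0.18 SE, adjusted p = 0.0016 from edgeR) and Chaf1b (0.84 ± 0.18 SE, adjusted p = 0.0042 from edgeR) had larger interactions. Among the proliferation markers, Pcna (0.92 ± 0.18 SE, adjusted p = 0.0023 from edgeR) and Ccna2 (0.82 ± 0.16 SE, adjusted p = 0.0025 from edgeR) had the smallest adjusted p. These 6 were picked from genes that passed in the same counts, so the refit with the culture as a block is no separate support. It gave adjusted p of 0.00014 for Phf12, 0.0015 for Brms1l, 4.9e-11 for Chaf1a, 8.3e-08 for Chaf1b, 6.2e-12 for Pcna and 1.9e-10 for Ccna2 from edgeR. Without the block, 2 of 13 other Sin3 subunits, 4 of 7 Rbbp4 and Rbbp7 partners and 4 of 10 proliferation markers were higher. None of these was lower, and 0 of 8 other NuRD and 0 of 9 other CoREST subunits passed. Over all genes 5.04% were higher, and 9.09% of those with 10 CPM or more. Among the 10 subunits none passed without the block, while Sap30, Rbbp7 and Mta1 passed with it. The p-values with the block rest on a spread borrowed from all genes.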

How the results depend on the processing

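Beside the test described above, the subunits were recomputed under other settings, 1600 values in all for 100 results. Of these, 1384 stayed on the same side of the threshold with the same sign, 87 no longer passed, 58 came to pass and 71 changed sign, and 36 of the 100 results were the same under every setting tried. In 69 of the 71 sign changes neither fit passed the threshold, and the largest of these values was 0.19 on the log2 scale. The other 2 were Sin3b and Chd4 in phase in CHO-S without stationary culture 1. The cause of the changes was not tested, apart from those where cultures were left out.

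Without TMM, small log2 values of Rcor1 in A1 against A0 at exponential phase (0.0095), of Sin3a (0.0044) and Rbbp7 (0.052) at stationary phase, of Sap30 in exponential A1 against CHO-S (0.0057), of Sin3b (0.14) and Sap30 (0.021) in stationary A1 against CHO-S, of Sin3b in stationary A0 against CHO-S (0.058) and of Sin3b in the interaction (0.035) changed sign. In these stationary comparisons with CHO-S it moved the median of all genes by 0.11 for A0 and 0.16 for A1. Sign changes also came with DESeq2 for Sin3b in stationary A1 against CHO-S (0.0020) and Sap30 in phase in CHO-S (0.17), with filterByExpr for Rbbp7 in A1 against A0 at stationary phase (0.00032) and Sin3b in the interaction (0.0014), and with no gene filter for Sin3b in the interaction (0.027).

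With the replicate block, the interaction called 3435 genes and 3 subunits in place of 1873 and 0 (edgeR), stationary A0 against CHO-S called 5043 genes in place of 7606, and phase in CHO-S called 350 genes and 0 subunits in place of 2308 and 2 (edgeR, 3 with an unadjusted p under 0.05). Signs changed for Rcor1 (0.057) and Rbbp7 (0.061) in A1 against A0 at exponential and stationary phase, for Sin3b in stationary A0 (0.060) and A1 (0.072) against CHO-S, and for Sap30 in phase in CHO-S (0.032). In A0 against its own exponential cultures, where deviations correlated by culture number, the block changed no call of a subunit. Between lines the numbers did not pair the samples.

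With all 6 groups in 1 fit, 2 subunits were called in A1 against A0 at exponential phase, 3 in exponential A1 against CHO-S, 3 (of 2470 genes) in phase in A1 and 7 in stationary A0 against CHO-S. Phase in CHO-S then had 4107 genes and the interaction 973, and signs changed for Rbbp7 in A1 against A0 at stationary phase (0.0053), Mta1 in phase in A1 (-0.015) and Sin3b in the interaction (0.0052).

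With A0 cultures 1 and 2 alone, the interaction called 4588 genes and 5 subunits, and signs changed for Rcor1 in A1 against A0 at exponential phase (0.14), for Sin3a (0.072), Rbbp7 (0.15) and Mta2 (-0.017) at stationary phase and for Mta2 in the interaction (-0.058). With A0 cultures 3 and 4 alone, 2 subunits were called in A1 against A0 at exponential phase and 2 in stationary A0 against CHO-S. Signs changed for Sin3b (-0.062) and Sap30 (-0.026) at exponential phase, Mta1 (-0.13) at stationary phase and Sin3b (0.078) in the interaction. With the first A0 libraries only, the interaction called 1 subunit, and Mta2 in A1 against A0 at exponential phase was -0.026.

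Leaving out 1 culture at a time gave 3160 to 6015 genes and 0 to 5 subunits in A1 against A0 at exponential phase, the lowest without A1 culture 3, where edgeR called 0 subunits and 5 had an unadjusted p under 0.05. Stationary A1 against CHO-S gave 4051 genes without CHO-S culture 2 and 10451 without CHO-S culture 1, with 1 (without A1 culture 2) to 8 subunits, and stationary A0 against CHO-S 3 to 7 subunits, the highest without CHO-S culture 1. Phase in CHO-S ran from 0 genes without exponential culture 2 (edgeR, 3471 with an unadjusted p under 0.05) to 8269 without stationary culture 1, and from 0 to 9 subunits. The interaction ran from 1003 to 2653 genes, the lowest without stationary A1 culture 2 and the highest without exponential A0 culture 4, and from 0 to 1 subunit (edgeR). Values that crossed 0 among the A1 against A0 comparisons were Sin3b (-0.026 to 0.078) and Rcor1 (-0.090 to 0.055) at exponential phase and Sin3b (-0.010 to 0.047), Rbbp7 (-0.065 to 0.058) and Mta1 (-0.023 to 0.18) at stationary phase. Against CHO-S they were Sin3b (-0.26 to 0.19) and Suds3 (-0.22 to 0.026) in stationary A0, Sap30 in exponential A1 (-0.11 to 0.017), and Sin3b (-0.27 to 0.16) and Sap30 (-0.44 to 0.11) in stationary A1. With phase they were Mta1 in A1 (-0.060 to 0.062) and Sin3b (-0.25 to 0.18), Sap30 (-0.33 to 0.18) and Chd4 (-0.13 to 0.29) in CHO-S, and in the interaction Sin3b (-0.043 to 0.044) and Mta2 (-0.021 to 0.060).

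The depth of CHO-S stationary culture 1 limited Sap30 and Sin3b most, with 34 and 37 reads. In simulated counts at the real depths, 76.0% to 85% of genes changed by 1 on the log2 scale were recovered in the 3 comparisons that hold that culture, against 92.0% to 100% in the others. The simulated spread was estimated from the same cultures, culture 1 included. The simulation therefore cannot tell a part of depth from a part of spread. The real counts of culture 1 departed from those of CHO-S stationary cultures 2 and 3 by more than counting noise. Chi-square values over their degrees of freedom came to 33.7 and 30.5, against 2.28 between cultures 2 and 3. The share of the lower recovery that went with each was not tested.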

Other observations

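A further corepressor complex, which carries Hdac3, was read for comparison. Gps2, a core subunit of it, stood above the exponential CHO-S level, by 1.36 ± 0.11 (SE, adjusted p = 1.3e-07) in A0 and 1.31 ± 0.068 (SE, adjusted p = 7.1e-14) in A1 on the log2 scale in edgeR's test. Of the 5 genes of the complex tested, 1 was higher and 2 lower in A0, beside 27.6% and 21.9% of all genes, and 2 higher and 3 lower in A1, beside 30.0% and 27.1%, with medians of -0.18 and -0.57, so that most of the genes called lay opposite to Gps2 in direction. Both comparisons share the CHO-S cultures. Hdac3 was lower in A0 than in exponential CHO-S (-0.82 ± 0.10 SE, adjusted p = 6.3e-06 from edgeR). With the stationary phase Gps2 fell in A0 (-0.72 ± 0.11 SE, adjusted p = 5.1e-05 from edgeR).

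Each exponential A0 culture number had a pair of libraries, and the labels do not say how the second was made or what RLT in the names of those of cultures 1 and 2 marks. Between the libraries of cultures 3 and 4, the median absolute log2 difference between libraries over the 10 subunits was 0.062 and 0.047. Between the first and the RLT libraries of cultures 1 and 2 it was 0.20 and 0.12. With the first libraries alone, Sin3a (-0.27, adjusted p = 0.018 from edgeR) and Rbbp4 (0.23, adjusted p = 0.045 from edgeR) passed between A1 and A0 at exponential phase in addition to the other 4.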
